A study of Mus musculus with 2 samples.

Results

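Fgf3, Bmp4 and Notch2 are 3 of the 31053 genes listed in the files and 3 of the 8879 whose mean over both libraries reached 5 CPM. CPM is the number of unique molecular identifiers (UMIs, 1 per captured RNA molecule) of a gene in every 1000000 UMIs that its library holds. They were found by symbol, and they had been selected because their UMIs were lower in the library labelled tamoxifen, so that difference is described below and not tested. Fgf3 encodes a secreted fibroblast growth factor, Bmp4 a secreted bone morphogenetic protein and Notch2 a receptor in the cell membrane. FGF ligands signal through receptor tyrosine kinases to Ras and MAP kinases, and BMP ligands signal through serine/threonine kinase receptors to SMAD1, SMAD5 and SMAD4. Notch receptors, once bound by a ligand on a neighboring cell, are cut by ADAM10 and γ-secretase, and the freed intracellular part joins RBPJ on DNA. All of these pathways pattern the embryo and act in the formation of blood cells.

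The cells were GFP+ Lin- c-Kit+ splenocytes from mice with AE9a leukemia, in which a shortened form of the AML1-ETO fusion protein causes acute myeloid leukemia. Both groups carried Usp18+/f UBCER-Cre, in which a ubiquitin C promoter drives a tamoxifen-dependent Cre in all tissues, and per the study's methods the fusion was put into fetal liver cells with a GFP retrovirus. Leukemia cells were passed through irradiated C57BL/6 mice, recipients that had become sick were given oil (labelled Usp18+/f) or tamoxifen (labelled Usp18+/Δ), and splenocytes were taken for sorting on day 3 from the first dose. Each group pooled 3 mice before capture, so it is 1 library. Per the study's methods the mice were of both sexes and aged 8 to 12 weeks. There was no replicate library, and every interval below covers counting error only, at 95%.

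The library labelled oil held 63690481 UMIs over 7281 barcodes and the library labelled tamoxifen 65146263 UMIs over 7833, of which 6546 and 7073 cells were kept, with medians of 8575.5 and 8023 UMIs. They shared 15 barcodes, 11 of them among kept cells. Usp18 was not lower in the library labelled tamoxifen, at 5.68 CPM in the oil-labelled and 24.1 CPM in the tamoxifen-labelled library. These counts are over the whole gene and cannot show whether 1 of its alleles was deleted, so they do not check the labels. Isg15, an interferon-stimulated gene, was higher in the library labelled tamoxifen, at 20.9 and 115.6 CPM, a log2 ratio of 2.47 (2.38 to 2.55). The 6 leukemia and progenitor markers (Kit, Cd34, Runx1, Runx1t1, Myb and Gata2) summed to 1134 and 1102 CPM, and 98.5% and 99.3% of cells had a UMI of at least 1 of them. Mast cell or basophil markers (8 genes) summed to 1074 and 1106 CPM and erythroid markers (7 genes) to 4178 and 4327 CPM. The megakaryocyte, monocyte or macrophage, B cell, dendritic cell and endothelial lists summed to between 0 and 7.41 CPM. Neutrophil markers summed to 0.0517 and 22.5 CPM, with Elane at 0 in both. Among the stromal markers Dcn stood at 81.2 and 67.0 CPM while Col3a1 had no UMI, and among the T and NK cell markers Nkg7 stood at 7.20 and 17.4 CPM while Cd3d and Cd8a had none. The part of these lists in the values of the 3 genes was not tested.

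The 3 genes lie on different chromosomes of mm10. Fgf3 (ENSMUSG00000031074) spans chr7:144838083-144844436 on the plus strand, with 3 exons in its main transcript. Bmp4 (ENSMUSG00000021835) spans chr14:46383520-46390669 on the minus strand, with 4 exons. Notch2 (ENSMUSG00000027878) spans chr3:98013527-98150361 on the plus strand, with 34 exons. Since the genes were lower together, the RefSeq sequence before each start site (GRCm38.p6) is shown, 5′ to 3′ on the strand of the gene, at chr7:144838362-144838594, chr14:46390670-46390919 and chr3:98013288-98013526. All 3 stretches end before the first exon of the main transcript, and the stretch of Fgf3 lies in the first intron of a second transcript that starts further upstream. Capitals mark matches to the motifs searched.
Fgf3: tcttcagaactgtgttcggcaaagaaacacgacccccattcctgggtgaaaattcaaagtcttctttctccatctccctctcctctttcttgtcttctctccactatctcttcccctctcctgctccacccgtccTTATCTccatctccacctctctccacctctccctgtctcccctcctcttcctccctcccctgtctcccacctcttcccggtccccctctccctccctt
Bmp4: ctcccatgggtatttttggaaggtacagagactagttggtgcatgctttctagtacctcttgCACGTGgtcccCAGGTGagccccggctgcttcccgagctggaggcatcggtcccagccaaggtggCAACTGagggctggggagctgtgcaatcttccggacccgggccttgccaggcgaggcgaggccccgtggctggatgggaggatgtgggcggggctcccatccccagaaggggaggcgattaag
Notch2: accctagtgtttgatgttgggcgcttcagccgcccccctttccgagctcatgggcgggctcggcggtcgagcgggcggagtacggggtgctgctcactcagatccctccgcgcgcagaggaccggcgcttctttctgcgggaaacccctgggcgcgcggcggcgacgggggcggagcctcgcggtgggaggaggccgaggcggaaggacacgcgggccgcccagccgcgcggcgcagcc

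Both strands of the whole windows of 300 bases (250 before to 50 after the start) were searched for 5 short motifs. The RUNX motif TGTGGT, the core bound by AML1, was in none of the 3 windows and in 16.8% of 32851 promoter windows of that length. The GATA motif AGATAA matched once, in Fgf3, and was in 11.2% of all windows. The RBPJ motif TGGGAA matched in none (25.6% of all windows), and the E-box CANNTG matched 3 times in Bmp4 and not in the other two (72.3%). The interferon-stimulated response element (ISRE) matched in none (3.44%). No 2 matches overlapped. GC content was 59.3% for Fgf3, 64.0% for Bmp4 and 73.0% for Notch2, against a median of 52.7% over all windows. The windows thus shared none of these motifs, which says only that these letters are not within them.

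All 3 genes had fewer UMIs in the library labelled tamoxifen, which is what selected them. Fgf3 had 2475 UMIs, or 42.6 CPM (41.0 to 44.3), in the oil-labelled library and 1797 UMIs, or 30.2 CPM (28.8 to 31.6), in the tamoxifen-labelled one. Its log2 ratio of CPM was -0.50 (-0.59 to -0.41). Bmp4 had 2066 UMIs, or 35.6 CPM (34.1 to 37.1), and 1393 UMIs, or 23.4 CPM (22.2 to 24.7), a log2 ratio of -0.60 (-0.70 to -0.51). Notch2 had 3182 UMIs, or 54.8 CPM (52.9 to 56.7), and 2084 UMIs, or 35.0 CPM (33.5 to 36.6), a log2 ratio of -0.65 (-0.73 to -0.57). The tamoxifen-labelled level was 70.9% of the oil-labelled one for Fgf3, 65.8% for Bmp4 and 63.9% for Notch2. The ratio of Fgf3 was 0.15 above that of Notch2 on the log2 scale (0.030 to 0.27), whereas Bmp4 lay between them, 0.11 below Fgf3, and its differences from both had intervals that included 0.

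Over the 8879 genes, the median log2 ratio was 0.0074 and 92.4% of genes lay within 0.25 of 0. A ratio at least 1.5-fold lower was found for 16 of them, 0.180%, and a ratio at least 1.5-fold higher for 104, or 1.17%. Bmp4 and Notch2 were among the 16, at 1.52-fold and 1.56-fold lower, and Fgf3 was not, at 1.41-fold. Nothing is read from this count, because the genes were chosen on the same contrast. Lower ratios than those of Fgf3, Bmp4 and Notch2 were found for 29, 14 and 11 genes.

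**Figure D1:**
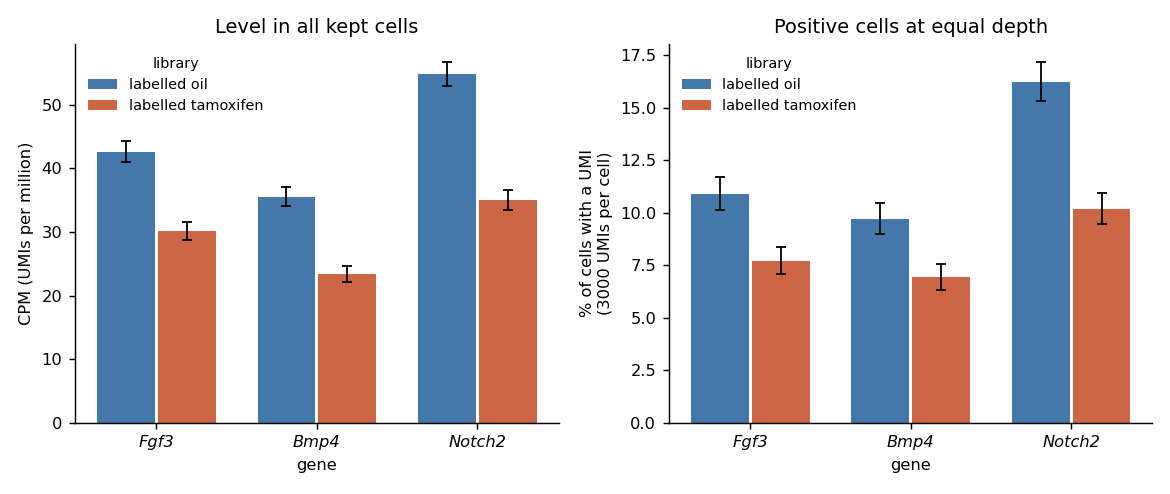
Level of Fgf3, Bmp4 and Notch2 in CPM over all kept cells (left) and percent of cells with at least 1 UMI after each cell was thinned to 3000 UMIs (right), by library; bars are the value of 1 library and lines are 95% counting intervals. The tamoxifen-labelled library was lower for each gene on both scales, from 54.8 to 35.0 CPM and from 16.2% to 10.2% of cells for Notch2.

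The share of positive cells was lower as well, which at these levels does not separate fewer expressing cells from less RNA per cell. To compare shares at 1 depth, cells were thinned at random to 3000 UMIs, which left 6090 and 6723 cells and left out 456 and 350 shallower ones. Fgf3 was then found in 663 cells of the oil-labelled library, 10.9% (10.1 to 11.7), and in 517 cells of the tamoxifen-labelled one, 7.69% (7.06 to 8.35). Bmp4 was found in 591 cells, 9.70% (8.97 to 10.5), and in 465 cells, 6.92% (6.32 to 7.55). Notch2 was found in 988 cells, 16.2% (15.3 to 17.2), and in 685 cells, 10.2% (9.48 to 10.9). The log2 ratios of the shares were -0.50 (-0.66 to -0.34) for Fgf3, -0.49 (-0.66 to -0.32) for Bmp4 and -0.67 (-0.80 to -0.54) for Notch2.

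Without thinning, Fgf3 was found in 25.6% and 18.5% of cells, Bmp4 in 24.5% and 16.6%, and Notch2 in 35.8% and 24.2%. Positive cells were deeper than negative ones, with medians of 10248.5 against 7931 UMIs for Fgf3, 9583 against 8206 for Bmp4 and 9179 against 8262.5 for Notch2 in the library labelled oil. Most positive cells had 1 UMI. Cells with 2 or more UMIs made up 31.6% and 26.4% of the Fgf3-positive cells, 23.0% and 16.6% of the Bmp4-positive cells and 28.5% and 18.4% of the Notch2-positive cells. No cell had more than 8 UMIs of any of the genes, and the 10 cells with the most UMIs held between 1.48% and 2.95% of the UMIs of a gene in a library. Among thinned cells the variance of Fgf3 UMIs was 1.10 and 1.09 times the mean, that of Bmp4 1.08 and 1.08 times, and that of Notch2 1.04 and 1.02 times, where counting error alone gives a ratio of 1. None of the clusters is a type known to lack the 3 genes, so no background share of free RNA can be set beside these shares.

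The share of mitochondrial UMIs of the cells changed some of these values. With at most 5% mitochondrial UMIs per cell in place of 10%, only 1013 and 732 cells remained. The log2 ratio of CPM was then -1.04 (-1.38 to -0.70) for Fgf3, -0.093 (-0.42 to 0.23) for Bmp4 and -0.52 (-0.79 to -0.26) for Notch2. The ratio of positive shares of Bmp4 was -0.26 (-0.81 to 0.28). A difference in Bmp4 was thus not detectable among these cells on either scale, and the cause was not tested.

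The level by cell cycle phase, which took no part in the choice of the genes, differed between them. Phases were called from the S and G2M gene lists on thinned cells. Such calls are ranges of 2 scores, and 15.9% and 15.2% of cells lay within 0.05 of a boundary. Cells called G1 made up 21.9% and 28.5% of the oil-labelled and tamoxifen-labelled libraries, S cells 29.3% and 28.2%, and G2M cells 48.9% and 43.3%. Cells called G1 were shallower, with a median of 6352 UMIs against 10569.5 in G2M in the library labelled oil.

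Fgf3 was lowest in G1. It stood at 22.6 CPM (19.5 to 26.0) in G1, 44.8 CPM (41.6 to 48.1) in S and 47.1 CPM (44.8 to 49.5) in G2M in the oil-labelled library. The values of the tamoxifen-labelled library were 15.5 CPM (13.3 to 17.9), 31.1 CPM (28.5 to 33.8) and 35.7 CPM (33.7 to 37.9). The log2 ratio of G2M over G1 was 1.06 (0.85 to 1.28) and 1.21 (0.98 to 1.44). S and G2M were alike in the library labelled oil, at 0.073 (-0.055 to 0.20), and G2M was somewhat higher in the other, at 0.20 (0.051 to 0.36). At equal depth, Fgf3 was found in 5.93% of G1 cells, 12.2% of S cells and 12.3% of G2M cells of the library labelled oil, and in 3.24%, 8.80% and 9.90% of the library labelled tamoxifen. Of the genes above 5 CPM, 4.81% and 5.02% had a G2M over G1 ratio as high as that of Fgf3, and the median gene stood at -0.020 and 0.0059. Among the cells with at most 5% mitochondrial UMIs the ratio in the oil-labelled library was 0.37 (-0.32 to 1.14).

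Notch2 had the opposite order and was highest in G1. In the oil-labelled library it stood at 72.9 CPM (67.3 to 78.7) in G1, 51.0 CPM (47.6 to 54.6) in S and 50.7 CPM (48.3 to 53.3) in G2M. In the tamoxifen-labelled library it stood at 50.8 CPM (46.8 to 55.0), 29.3 CPM (26.8 to 32.0) and 30.8 CPM (28.9 to 32.9). S and G2M did not differ beyond counting error in either. The log2 ratio of G2M over G1 was -0.52 (-0.66 to -0.39) and -0.72 (-0.87 to -0.57), and 13.9% and 9.40% of genes had a ratio as low.

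Bmp4 was also highest in G1, by less. Its levels in G1, S and G2M were 41.7, 31.7 and 35.8 CPM in the oil-labelled library and 28.0, 20.8 and 22.6 CPM in the tamoxifen-labelled one. The log2 ratio of G2M over G1 was -0.22 (-0.39 to -0.048) and -0.31 (-0.50 to -0.12), and that of S over G1 was -0.40 (-0.59 to -0.20) and -0.43 (-0.65 to -0.21). The order of G1 over S was therefore seen in both libraries for Bmp4 and Notch2 and reversed for Fgf3.

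**Figure D2:**
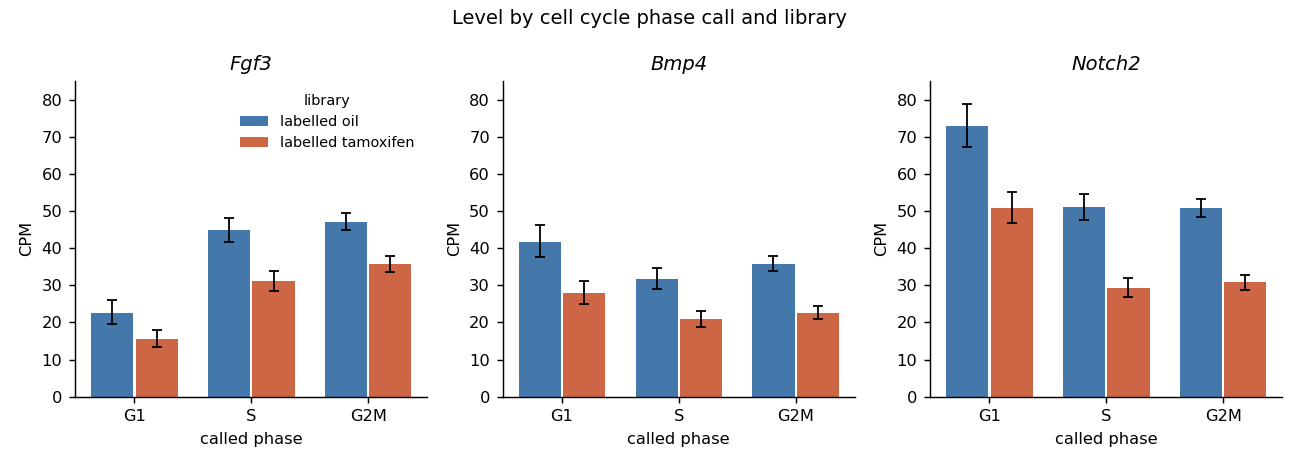
CPM of each gene in cells called G1, S or G2M, by library; bars are sums over the cells of 1 library and lines are 95% counting intervals. Fgf3 was lowest in G1 and Notch2 and Bmp4 were highest there, and the tamoxifen-labelled library was lower in each phase.

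The 3 genes were lower in the tamoxifen-labelled library within each phase. For Fgf3 the log2 ratios of tamoxifen-labelled over oil-labelled were -0.55 (-0.84 to -0.25) in G1, -0.53 (-0.69 to -0.36) in S and -0.40 (-0.51 to -0.28) in G2M. For Bmp4 they were -0.57 (-0.79 to -0.36), -0.61 (-0.81 to -0.41) and -0.67 (-0.80 to -0.53). For Notch2 they were -0.52 (-0.69 to -0.36), -0.80 (-0.96 to -0.63) and -0.72 (-0.84 to -0.60). These values split the contrast that chose the genes and are no further support for it. Weighting the phases alike in both libraries gave -0.46, -0.62 and -0.67 for Fgf3, Bmp4 and Notch2 over the cells with a phase call.

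Co-detection was then examined, to ask whether the genes were found in the same cells more or less often than their shares give. At 3000 UMIs per cell, Fgf3 and Bmp4 were found together in 66 cells of the oil-labelled library, where independence gives 64.3, and in 35 cells of the tamoxifen-labelled one, where it gives 35.8. Fgf3 and Notch2 were found together in 103 cells (107.6 by independence) and 51 cells (52.7). Bmp4 and Notch2 were found together in 104 cells (95.9) and 43 cells (47.4). Observed counts were thus between 0.908 and 1.08 times those of independence. The log2 odds ratios ran from -0.17 to 0.16, and each of the 6 intervals included 0. The widest was that of Fgf3 with Bmp4 in the tamoxifen-labelled library, -0.59 to 0.48, and the narrowest that of Fgf3 with Notch2 in the oil-labelled library, -0.42 to 0.24, so a moderate association in either direction was not detectable at this depth. Stratified by phase, the 6 values ran from -0.24 to 0.12 and their intervals again included 0. Another random draw of the thinning gave values from -0.48 to 0.26, each with an interval that included 0.

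In cell shares, Bmp4 was found in 9.95% (7.78 to 12.5) of Fgf3-positive and 9.67% (8.90 to 10.5) of Fgf3-negative cells of the oil-labelled library. Notch2 was found in 15.5% (12.9 to 18.5) of Fgf3-positive and 16.3% (15.3 to 17.3) of Fgf3-negative cells. Across 4198 and 4283 genes found in 5% to 20% of thinned cells, the median log2 odds ratio with each of the 3 genes lay between -0.0093 and 0.021. The lowest percentile 5 was -0.45 and the highest percentile 95 was 0.43, so the median does not show that single genes were independent. Without thinning, where cells differ in depth, all 6 log2 odds ratios were above 0. In the oil-labelled library they were 0.57 (0.39 to 0.75) for Fgf3 with Bmp4, 0.22 (0.055 to 0.39) for Fgf3 with Notch2 and 0.32 (0.15 to 0.49) for Bmp4 with Notch2. In the tamoxifen-labelled library they were 0.29 (0.059 to 0.52), 0.13 (-0.069 to 0.34) and 0.19 (-0.026 to 0.40).

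Cells with none of the 3 genes made up 67.5% (66.3 to 68.6) of thinned cells in the oil-labelled library and 77.1% (76.1 to 78.1) in the tamoxifen-labelled one. At least 1 of them was found in 1982 cells, 32.5% (31.4 to 33.7), and in 1540 cells, 22.9% (21.9 to 23.9). At least 2 were found in 247 cells, 4.06% (3.57 to 4.58), and in 125 cells, 1.86% (1.55 to 2.21). All 3 were found in 13 cells, 0.213% (0.114 to 0.365), and in 2 cells, 0.0297% (0.0036 to 0.107). Most positive cells thus had 1 of the genes, with Notch2 alone in 13.0% and 8.82% of cells, Fgf3 alone in 8.33% and 6.44%, and Bmp4 alone in 7.13% and 5.79%.

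**Figure D3:**
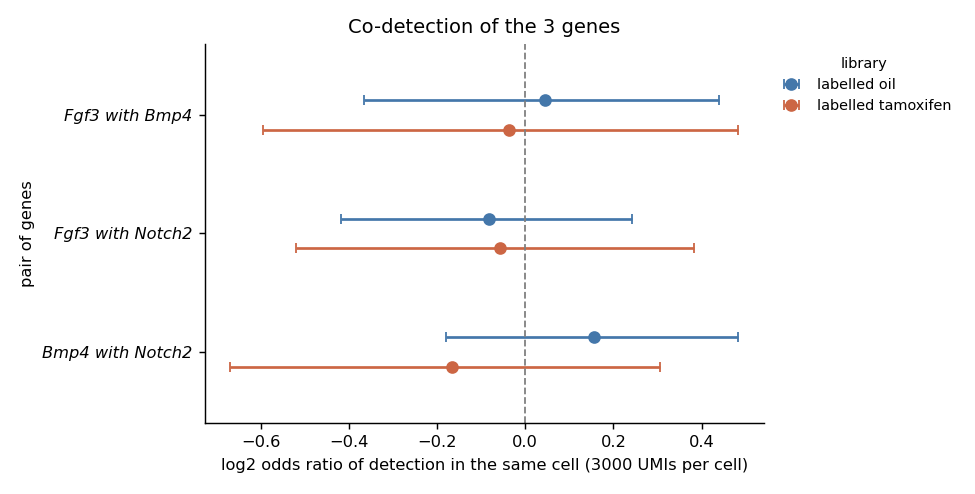
Log2 odds ratio of finding each pair of genes in the same cell at 3000 UMIs per cell, by library; points are the estimate and lines the exact 95% interval, and the dashed line marks independence. The points lie between -0.17 and 0.16 and each line crosses 0.

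The genes were also compared across 9 clusters made from both libraries without the 3 genes, a list of interferon-stimulated genes and a list of sex genes. Clusters are named here by number and leading genes. Cluster 0 was led by replication-dependent histone genes such as Hist1h1a and Hist1h1b, and cluster 1 by early S phase genes such as Ung, Cdc6 and Mcm4. Cluster 2 was led by Cpa3, Csf2rb2 and Ypel3, and 92.7% of its thinned cells were called G1. Cluster 3 was led by mitotic genes such as Cenpf, Ube2c and Plk1, and cluster 4 by Ccnb2, Hist1h2bc and Cdkn3.

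Fgf3 was highest in cluster 3, at 54.5 CPM (51.0 to 58.1) in the oil-labelled and 41.4 CPM (38.1 to 44.9) in the tamoxifen-labelled library. It was lowest in cluster 2, at 16.4 CPM (13.3 to 20.1) and 13.7 CPM (11.5 to 16.2). Clusters 0, 1 and 4 lay between, at 38.1, 44.7 and 43.9 CPM in the library labelled oil, where clusters 1 and 4 did not differ beyond counting error. Notch2 was highest in cluster 2, at 79.7 CPM (72.5 to 87.3) and 55.5 CPM (51.0 to 60.3), and lowest in clusters 0 and 4, at 41.9 and 40.4 CPM in the oil-labelled library. Bmp4 varied least, from 30.4 CPM (27.7 to 33.4) in cluster 0 to 44.4 CPM (39.1 to 50.2) in cluster 2 in the oil-labelled library. Cluster 2 therefore held the lowest level of Fgf3 and the highest of Notch2 and Bmp4 among these 5 clusters in both libraries. For each gene and library the intervals of its highest and lowest cluster did not overlap, whereas those of Bmp4 in clusters 2 and 3 of the oil-labelled library did.

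Within each of clusters 0 to 4 the values were lower in the tamoxifen-labelled library. The log2 ratios ran from -0.77 to -0.52 for Notch2, from -0.77 to -0.50 for Bmp4 and from -0.47 to -0.26 for Fgf3. The ratio nearest 0 was that of Fgf3 in cluster 2, -0.26 (-0.65 to 0.13), with 94 and 137 UMIs. The sizes of clusters are not compared.

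**Figure D4:**
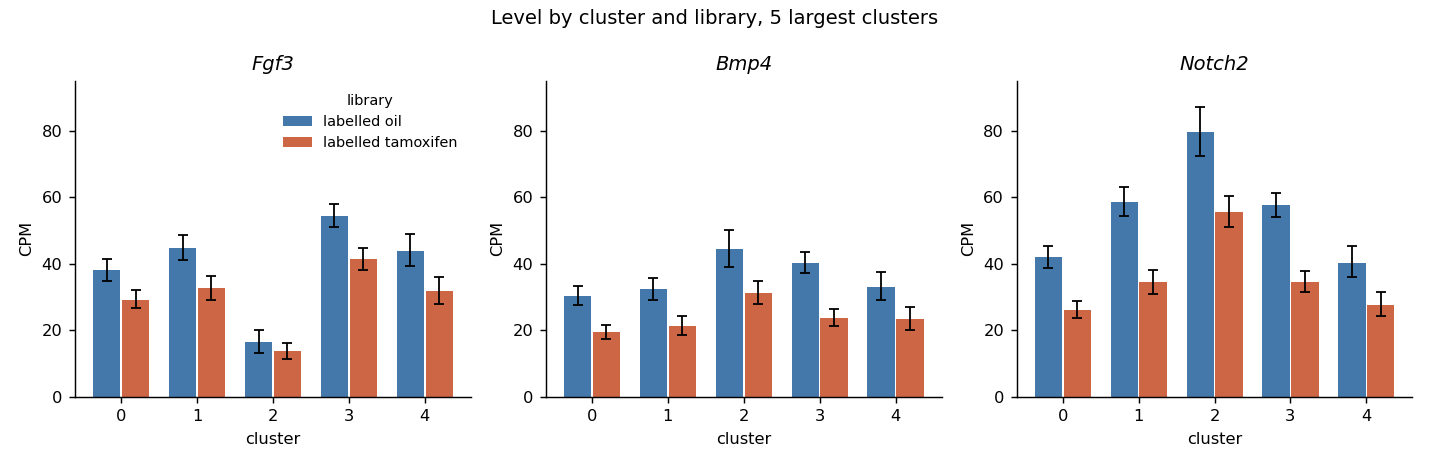
CPM of each gene in the 5 largest clusters, by library; bars are sums over cells of 1 library and lines are 95% counting intervals. Cluster 2 has the lowest Fgf3 (16.4 and 13.7 CPM) and the highest Notch2 (79.7 and 55.5 CPM).

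The 4 small clusters held between 0 and 79 UMIs of a gene in a library. Cluster 5, with 312 and 43 shallow cells (median 1051 UMIs, 0.890% mitochondrial), had 13 and 0 Fgf3 UMIs, 6 and 1 Bmp4 UMIs and 39 and 3 Notch2 UMIs. Cluster 6, led by Ahnak, Klf2 and Tpsab1, had 14 Fgf3 UMIs in 158 cells and 0 in 60 cells, at 17.9 CPM (9.81 to 30.1) against an upper limit of 19.0 CPM for the count of 0, so a difference was not detectable. Its Notch2 level was 101.2 CPM (80.1 to 126.1) in the oil-labelled library, with 79 UMIs. Cluster 7, led by the interferon-stimulated genes Mx1, Iigp1 and Ifit1, had 5 cells of the oil-labelled library, so no comparison can be made there. In its 57 tamoxifen-labelled cells Fgf3 stood at 41.3 CPM (24.9 to 64.5), Bmp4 at 30.4 CPM (16.6 to 51.0) and Notch2 at 45.6 CPM (28.3 to 69.8). Cluster 8, led by S100a9, S100a8 and Camp with C1qa and C1qb, had 9 and 47 cells. Its 8 and 4 Fgf3 UMIs were 75.8 and 8.75 CPM, a log2 ratio of -3.12 (-5.30 to -1.22), and its 11 and 13 Notch2 UMIs were 104.3 and 28.4 CPM, or -1.87 (-3.15 to -0.57). Bmp4 had 5 and 7 UMIs, or 47.4 and 15.3 CPM, at -1.63 (-3.50 to 0.37). These values rest on 9 cells of the oil-labelled library.

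The number of UMIs of interferon-stimulated genes (ISGs) per cell differed between the libraries, so the 3 genes were also compared among cells with like numbers of ISG UMIs. These strata were chosen after other values had been seen. Cells with 0 to 1 ISG UMIs among 3000 numbered 795 and 257, and cells with 10 or more numbered 175 and 1399. In the lowest stratum Fgf3 stood at 50.04 CPM (45.3 to 55.2) and 28.4 CPM (22.2 to 35.9), Bmp4 at 37.1 CPM (33.0 to 41.5) and 20.03 CPM (14.9 to 26.4), and Notch2 at 52.0 CPM (47.2 to 57.2) and 30.05 CPM (23.6 to 37.7). Over the 4 strata the log2 ratios ran from -0.81 to -0.28 for Fgf3, from -0.89 to -0.56 for Bmp4 and from -0.80 to -0.52 for Notch2, which again divides the contrast that selected the genes. Within a library, Notch2 was higher in the highest than in the lowest stratum of the tamoxifen-labelled library, by 0.52 (0.17 to 0.89), and Fgf3 was lower in the highest stratum of the oil-labelled one, at -0.50 (-0.97 to -0.060). The other 4 such contrasts had intervals that included 0, with Notch2 at 0.25 (-0.11 to 0.59) in the oil-labelled library, Fgf3 at -0.38 (-0.77 to 0.028) in the tamoxifen-labelled one, and Bmp4 at 0.26 (-0.17 to 0.67) and 0.37 (-0.069 to 0.84).

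The other genes of the 3 pathways were then examined, from lists of 159 genes sorted by role. Of these, 158 were in the files and 54 reached a mean of 5 CPM. None of the 54 was at least 1.5-fold lower in the tamoxifen-labelled library and 1 was at least 1.5-fold higher. The median log2 ratio of the 54 was 0.047, with 15 below 0 and 39 above, beside 0.0074 over all genes, of which 0.180% were 1.5-fold lower and 1.17% 1.5-fold higher.

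Among FGF ligands other than Fgf3, 10 of 21 had no UMI and 2 reached 5 CPM. Fgf2 stood at 11.04 and 13.7 CPM, a log2 ratio of 0.32 (0.17 to 0.47), and Fgf12, an intracellular member of the family, at 7.35 and 6.22 CPM, or -0.24. Of the receptors only Fgfr1 reached 5 CPM, at 69.8 and 82.1 CPM, or 0.24, while Fgfr2 and Fgfr4 had no UMI and Fgfr3 had 3 and 0. The adaptors that carry the signal to Ras, Grb2 (0.068), Sos2 (0.041) and Shc1 (-0.070), were near 0. Of the targets, Spred1, an inhibitor of Ras signaling, stood at 11.7 and 14.1 CPM (0.27) and Spred2 at 5.22 and 5.14 CPM (-0.021), and below 5 CPM Spry1 had 132 and 130 UMIs, Ccnd1 30 and 33, Dusp6 3 and 4, Etv5 0 and 2, and Etv4 none.

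BMP ligands other than Bmp4 were led by Bmp7, at 42.7 and 43.3 CPM (0.021), and Bmp2, at 28.1 and 25.7 CPM (-0.13). The type II receptor Bmpr2 stood at 47.3 and 51.8 CPM (0.13) and the co-receptor Eng at 9.97 and 13.7 CPM (0.46), while the type I receptors Bmpr1a and Acvr1 had 5 UMIs each in the oil-labelled library and 4 and 6 in the other. Smad1 (0.065), Smad5 (0.096) and Smad4 (0.12) were close to 0. The inhibitory Smad7 had a ratio of -0.13, and the secreted antagonists Twsg1 and Dand5 had ratios of -0.0003 and -0.21. The BMP targets Id2, at 59.2 and 67.5 CPM (0.19), and Id1, at 40.6 and 42.7 CPM (0.072), had ratios above 0.

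Notch2 was the only Notch receptor above 5 CPM. Notch1 had 2 and 10 UMIs, Notch3 1 and 5, and Notch4 31 and 40. No canonical ligand reached 5 CPM, with Jag2 at 19 and 33 UMIs, Dll3 at 3 and 0, Dll4 at 0 and 1, and none for Dll1 and Jag1. The 14 Notch processing genes at 5 CPM or more had log2 ratios from -0.18 to 0.18, with 10 above 0 and 4 below. The 3 highest in CPM were Psen2, near 0 at 0.026, Psenen at -0.13 and Adam10 at -0.18. The nuclear cofactors Snw1 (0.0060), Ep300 (0.13) and Spen (0.0033) were also near 0. The targets Gata3, at 100.9 and 84.6 CPM (-0.25), and Hes1, at 41.1 and 34.9 CPM (-0.23), had ratios below 0 and Nrarp was at 0.0064.

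The 1 gene past 1.5-fold among the 54 was Dtx4, a Deltex family ubiquitin ligase that acts on Notch signaling. It had 240 UMIs, or 4.13 CPM, in the oil-labelled library and 1116 UMIs, or 18.8 CPM, in the tamoxifen-labelled one, a log2 ratio of 2.18 (1.98 to 2.39). Its relative Dtx3 was at 0.091, and the ubiquitin ligases Itch and Fbxw7 were at 0.10 and 0.044.

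**Figure D5:**
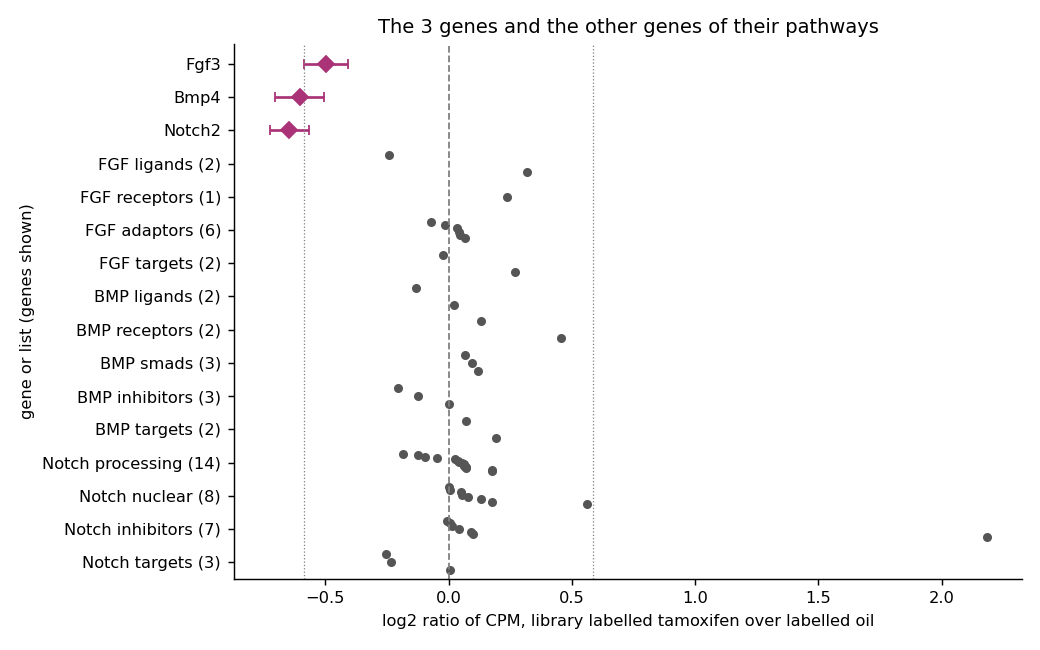
Log2 ratio of CPM, tamoxifen-labelled over oil-labelled library, for the 3 genes (diamonds with 95% counting intervals) and for the genes of each pathway list that reached 5 CPM (points, number in brackets); dotted lines mark 1.5-fold. The 3 genes lie at -0.50, -0.60 and -0.65, no list gene lies beyond the lower line, and the point at 2.18 is Dtx4.

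Targets were also compared between cells with and without a UMI of their pathway's gene, at 3000 UMIs per cell. Only the targets with at least 20 UMIs in these cells are given. In Bmp4-positive against Bmp4-negative cells, Id1 had a log2 ratio of -0.032 (-0.43 to 0.34) in the oil-labelled library and -0.77 (-1.31 to -0.28) in the tamoxifen-labelled one, with 34 UMIs in positive cells. Id2 stood at 0.16 (-0.10 to 0.41) and 0.26 (-0.000035 to 0.51), and the intervals of Id3, Smad6 and Smad7 included 0 in both. In Notch2-positive against Notch2-negative cells, Hes1 stood at -0.053 (-0.35 to 0.23) and 0.33 (-0.00033 to 0.66), and Nrarp at -0.16 (-0.74 to 0.39) and 0.081 (-0.59 to 0.70). For Fgf3 only Spry1 had enough UMIs, with 4 and 3 in positive cells, so a difference was not detectable.

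The genes within 300 kb of each member were examined for a like difference. Fgf4, which starts 2931 bases beyond Fgf3, had 1 UMI in the oil-labelled library and 0 in the other. Fgf15, 52095 bases away, had 118 and 210 UMIs, a log2 ratio of 0.80 (0.46 to 1.13), opposite in direction to Fgf3, and Gm26793, which overlaps it on the other strand and was named after its value was seen, had 139 and 185. The further neighbors of Fgf3 were near 0, with Ano1, a chloride channel gene, at -0.17 (-0.34 to -0.0046), Ccnd1, the gene of cyclin D1, with 30 and 33 UMIs, and Ppfia1 (-0.0058), Fadd (0.019) and Oraov1 (0.010). At 3000 UMIs per cell, Fgf15 was found with Fgf3 in 7 cells of the oil-labelled and 2 of the tamoxifen-labelled library, against 3.05 and 4.77 by independence, with intervals that included 0. Of the 6 neighbors examined in this way, Ppfia1 had intervals above 0 in both libraries, with 125 cells against 106.1 by independence, a log2 odds ratio of 0.32 (0.011 to 0.63), and 100 cells against 80.5, or 0.41 (0.068 to 0.75). Over genes found in 5% to 20% of thinned cells, percentiles 5 and 95 of this value with Fgf3 were -0.39 and 0.36 (oil-labelled) and -0.44 and 0.43 (tamoxifen-labelled). Ppfia1 thus lay within both ranges, and its values were not stratified by phase.

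Bmp4 is overlapped on the opposite strand by Gm15217, with no UMI, and by Gm15222, with 41 and 39 UMIs. The sources used here do not give how strand was used in counting, so a part of either count cannot be assigned with certainty, but the counts of Gm15222 are small beside those of Bmp4. No other protein-coding gene lies within 300 kb of Bmp4. The neighbors of Notch2 were near 0, with Sec22b at -0.044 (-0.12 to 0.029), Pde4dip at -0.12 (-0.28 to 0.042) and Phgdh, an enzyme of serine synthesis, at 0.16 (0.12 to 0.20). Adam30 had 3 and 1 UMIs, Reg4 0 and 1, and Zfp697 and Gm4450 none. No gene within 300 kb of a member and at 5 CPM or more had as low a ratio as that member.

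The genes whose levels most resembled each member were found over 13 profiles, 1 for each cluster and library with at least 50 cells and 200000 UMIs, by Pearson's r of log2(CPM + 1) among the 5984 genes whose mean reached 20 CPM. The profiles share libraries and cells of like phase, so r is a description. Fgf3 was most like Mrpl23 (r = 0.93), Tmem97 (0.92) and Sf3b5 (0.92), Bmp4 most like Blvrb (0.88), Arpc3 (0.88) and Gml (0.88), and Notch2 most like Sox6 (0.93), Atp11b (0.92) and Mbnl1 (0.91). Mrpl23 encodes a mitochondrial ribosomal protein, Blvrb a biliverdin reductase, and Sox6 a transcription factor of red cell development. Between libraries these 9 genes had log2 ratios from -0.31 (Gml) to -0.10 (Blvrb), less far from 0 than the members. The profiles came from both libraries, so the difference that selected the members was part of r and favored genes below 0. Nothing is read from the direction of these ratios. The members were less alike, with r of 0.41 for Bmp4 and Notch2, -0.26 for Fgf3 and Bmp4 and -0.33 for Fgf3 and Notch2.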

How the data were processed

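GFP+ Lin- c-Kit+ splenocytes were profiled with the 10x Genomics V3 kit in 2 libraries, each from 3 mice, with 8000 cells targeted. The authors deposited raw UMI counts per gene and barcode, made with Cell Ranger 3.0.2 per the file headers and mm10 per the submitters' processing notes, which also name Seurat. Barcodes under 500 genes or above 10% mitochondrial UMIs were left out. Scrublet in scanpy 1.11.5 (expected rate 6%) marked 0.0436% and 0.0270% of cells, so its threshold had not worked, and the highest-scoring cells, past percentile 95, were removed (340 and 333). UMIs were summed per library and scaled to CPM. Thinning to 3000 UMIs preceded shares, phases and odds ratios. Clusters came from 2000 variable genes, chosen after the members, a list of ISGs and a list of sex genes were left out. They used 30 components, 20 neighbors and resolution 0.8.

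With 1 library per group no test was run. Intervals (95%, scipy 1.17.1) are exact Poisson for CPM, Clopper-Pearson for shares, exact conditional for ratios and odds ratios, and score intervals for ratios of shares, all for counting error only. The functions were tested on simulated data. Coordinates are from GENCODE vM21. Named genes were the members, Usp18, pathway genes past 1.5-fold, the 3 highest of each list (both among genes of at least 5 CPM), protein-coding neighbors (1 of which is not reported here) and the 3 most alike genes per member. List genes under 5 CPM were named after their values were seen. The members and lists were chosen with earlier results of these data known.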

Additional observations from a re-analysis of the deposited data

How the results depend on the processing

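No paired analysis was possible because neither group has a second library and no test was run. With 1 pool of mice per group, the spread between mice is unknown, and treatment, Cre activity and handling cannot be told apart. The log2 ratios of CPM stayed below 0 under all 10 alternatives for each gene, from -1.04 to -0.41 for Fgf3, from -0.67 to -0.093 for Bmp4 and from -0.73 to -0.52 for Notch2. The ratios of shares stayed below 0 under all 7, from -1.09 to -0.26, the last for Bmp4 with an interval that included 0. Scaling by median-of-ratios size factors moved all genes by 0.0074.

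The limit of 5% mitochondrial UMIs moved the most values; the cause was not tested. It gave log2 ratios of CPM of -1.04, -0.093 and -0.52 for Fgf3, Bmp4 and Notch2, and of shares of -1.09 for Fgf3 and -0.26 for Bmp4. G2M over G1 became 0.37 for Fgf3 and -0.47 for Bmp4 in the oil-labelled library, and -0.82 for Bmp4 and -0.99 for Notch2 in the tamoxifen-labelled one. Log2 odds ratios of Fgf3 with Notch2 became 0.41 (oil-labelled) and -1.81 (tamoxifen-labelled), and that of Bmp4 with Notch2 -2.40 (tamoxifen-labelled), from 643 and 569 cells and with intervals that included 0. It gave 262 genes at least 1.5-fold lower and 607 higher, where fewer cells are summed.

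G2M over G1 of Fgf3 was 1.36 and 1.45 without cells near a phase boundary, and 1.29 in the oil-labelled library with calls on unthinned cells. Without thinning, the log2 odds ratio of Fgf3 with Bmp4 was 0.57 in the oil-labelled library. Another random seed for thinning gave log2 odds ratios of 0.26 for Fgf3 with Notch2 and -0.21 for Bmp4 with Notch2 in that library, and -0.48 for Fgf3 with Bmp4 and -0.43 for Fgf3 with Notch2 in the tamoxifen-labelled one, so the sign of these values is not determined. At least 1 CPM gave 50 genes at least 1.5-fold lower and 284 higher among 10649 genes, and at least 20 CPM gave 9 and 42 among 5984. Chosen after seeing the data, standardising by ISG stratum gave -0.73 for Notch2, and leaving out clusters 5 to 8 changed no ratio beyond its interval.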

Other observations

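The barcodes left out by the filters, 735 of the library labelled oil and 760 of the library labelled tamoxifen, held the 3 genes at like levels. Fgf3 stood at 39.7 CPM (34.6 to 45.2) and 30.8 CPM (26.4 to 35.8), Bmp4 at 37.7 CPM (32.8 to 43.1) and 26.2 CPM (22.2 to 30.8), and Notch2 at 55.8 CPM (49.8 to 62.4) and 35.6 CPM (30.9 to 40.9). They come from the same libraries that chose the genes and are no further support for the difference.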
